A study of Caenorhabditis elegans with 12 samples.

Results

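The Hedgehog-related genes of Caenorhabditis elegans were examined in RNA sequencing libraries of LIN41 and SART-3 immunoprecipitates (RIP-seq) from larvae at the L3 and L4 stages. Genes were chosen by symbol: every wrt, grd or grl gene with a number, together with hog-1 and qua-1. This gave 58 of the 20182 genes in the table. Of these, 41 held at least 10 counts in 3 or more of the 12 libraries and are reported here (10 of 10 wrt, 10 of 16 grd and 19 of 30 grl genes, hog-1 and qua-1). The remaining 17 had a highest count of 1 to 158 in any library. Each fit applied its own filter: the 41 genes tested in the inputs include grl-6 in place of grd-7, and the 39 tested in the 12 libraries include grd-4 and grd-9 but not wrt-8, grd-15, grl-1 or grl-12.

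There were 4 groups with 3 replicates each: RNA immunoprecipitated with an anti-FLAG antibody from LIN41 worms (LIN41 IP), total RNA of the same worms (LIN41 input), and the IP and input of SART-3 worms, which served as the control. LIN41 worms carried the lin-41(n2914) mutation and the transgene xeSi197, in which the lin-41 promoter and 3'UTR surround flag-gfp-lin-41. SART-3 worms carried xeSi55, a sart-3 transgene with GFP, His and FLAG tags under the promoter of dpy-30, and were wild type for lin-41. Both strains carried him-5(e1490), which raises the share of males, and both were grown at 25 °C for about 30 h as semi-synchronous populations, so each library holds RNA of whole animals of mixed sex and stage. LIN41 is an RNA-binding protein of the heterochronic pathway, and SART-3 is a nuclear protein of pre-mRNA splicing. All 6 inputs were sequenced in lane 3 and all 6 IPs in lane 4, so that lane and library type cannot be told apart.

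C. elegans has no clear orthologue of Hedgehog or of its transducer Smoothened, but it has several families of secreted proteins related to Hedgehog. Warthog (wrt), Groundhog (grd) and Ground-like (grl) proteins each carry a family-specific N-terminal domain, and some wrt and grd proteins, as well as HOG-1 and QUA-1, also carry the Hog domain, the self-cleaving C-terminal part of Hedgehog. The worm kept a large set of Patched-related membrane proteins (ptc and ptr). Many genes of these families are transcribed in the epidermis and in glia, act in cuticle formation and molting, and are known for transcript levels that rise and fall with each larval molt.

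Library totals were 859814 to 2024430 counts in the LIN41 input, 1274703 to 1401265 in the SART-3 input, 291466 to 404046 in the LIN41 IP and 412440 to 612445 in the SART-3 IP. Together the 58 genes took 0.321% to 0.549% of the counts of a library. Levels are given below as CPM, counts scaled to a common library size with TMM factors. A level of 3 counts, taken as the floor of detection, corresponded to 1.30 to 3.35 CPM in an input and to 5.05 to 13.7 CPM in an IP, for counting error only. Symbols were matched to the WBcel235 annotation, in which 27 of the 58 genes lie on chromosome V, 12 on IV, 10 on X, 4 on III, 3 on II and 2 on I.

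Per kb of coding length, grd genes held the highest levels over the 6 inputs, though not in replicate 1. The mean input level was 368 CPM per kb for grd-10, 352 for grd-5 and 308 for grd-13, and next came grd-14 (303), grl-16 (264), grl-4 (253) and wrt-10 (252). Medians over the reported genes were 157 CPM per kb for grd, 84.9 for grl and 33.0 for wrt. By replicate number, the grd median was 101, 182 and 163 CPM per kb and the grl median 162, 25.4 and 24.2, so that the order of these families in replicate 1 was the opposite of that in replicates 2 and 3. The highest single gene in replicate 1 was grl-20 (298 CPM per kb, against 256 for grd-10). Between replicate numbers, grd-10 varied from 256 to 440 CPM per kb, grd-5 from 249 to 426 and grd-13 from 196 to 365, so the leading 3 were not separated from each other. At the other end, wrt-8 stood at 5.44 CPM per kb and grd-2 at 7.28. Because reads with the same 5′ end had been collapsed to 1, short abundant mRNAs approach a ceiling, and 4 of these genes exceeded 0.5 counts per bp in at least 1 library (grl-20 0.644, grd-10 0.570, grd-5 0.540 and grd-14 0.501).

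**Figure D1:**
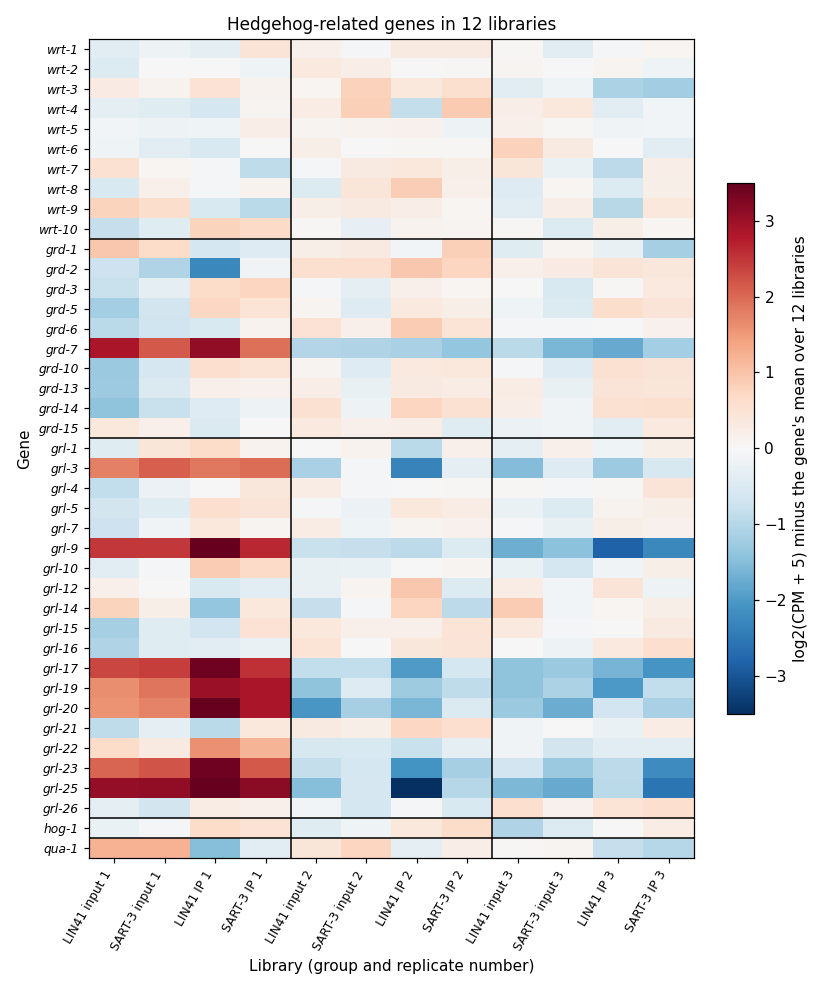
Level of the 41 reported genes (rows, by family) in the 12 libraries (columns, ordered by replicate number and then by group), as log2(CPM + 5) minus the mean of the gene over all libraries. Of the grl genes, 8 are high in the 4 libraries of replicate 1 and low in the other 8, and grd-7 shows the same pattern, whereas no wrt row does.

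Large differences lay between replicate numbers and involved 8 grl genes. In the inputs of both strains, grl-3, grl-9, grl-17, grl-19, grl-20, grl-22, grl-23 and grl-25 were lower in replicates 2 and 3 than in replicate 1, by a log2 difference of -1.09 to -5.28. The summed level of these 8 genes was 1457 CPM in LIN41 input replicate 1, against 113 and 111 CPM in replicates 2 and 3, and 1552 CPM in SART-3 input replicate 1, against 168 and 97.8 CPM. As the 6 inputs hold 2 libraries for each replicate number, 1 per strain, these tests compare replicate numbers and not the treatments of the study, and the labels do not say what libraries of the same number share. An IP and its input come from the same lysate, so the IP levels given below for these genes add no further cultures. In bulk RNA, fewer cells of a type and less RNA per cell cannot be told apart.

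Across the 41 genes tested in the inputs, 13 differed between replicates 2 and 1, 8 lower and 5 higher in replicate 2, where 8.01% of all 12802 genes were called (4.59% lower and 3.41% higher). Between replicates 3 and 1, 16 differed, 10 lower and 6 higher in replicate 3, against 25.7% of all genes (13.3% lower and 12.4% higher). A test for any difference among the 3 replicate numbers called 13 of the 41, against 17.2% of all genes. Replicates 3 and 2 were not separated for any of the 41 genes, against 0% of all genes with edgeR (7 of the 41 and 992 of all genes had an unadjusted p under 0.05), and DESeq2 also called 0 of the 41. By family, the contrast of replicates 3 and 1 called 10 of 20 grl genes, 4 of 9 grd genes, 1 of 10 wrt genes and qua-1. The median log2 difference of the 41 genes was 0.06 in that contrast and 0.27 in the contrast of replicates 2 and 1, with medians of -0.03 and 0.01 over all genes.

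**Figure D2:**
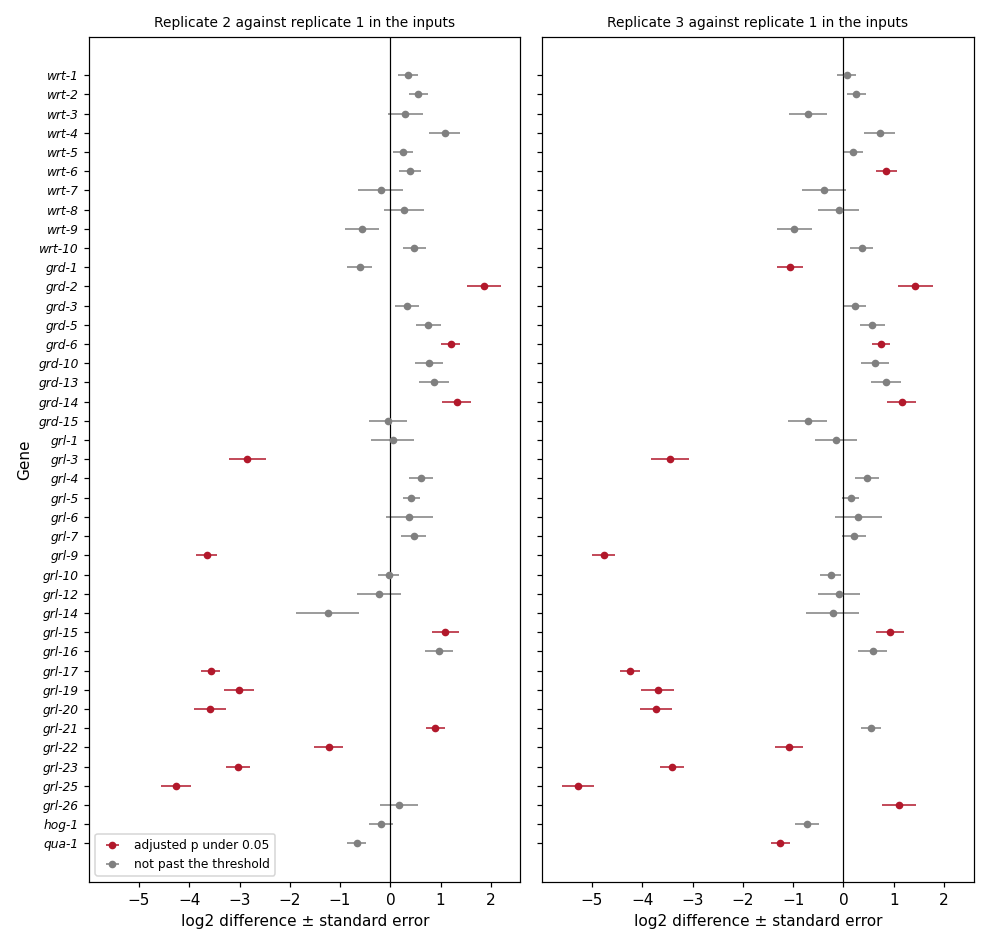
Fitted log2 difference in the inputs between replicates 2 and 1 (left) and replicates 3 and 1 (right) for the 41 genes tested, with standard errors. Red points passed an adjusted p of 0.05. A group of 8 grl genes passed to the left of 0 in both panels, from grl-22 at -1.23 and -1.09 to grl-25 at -4.27 and -5.28. Near grl-22 lie genes outside this group, such as grl-14 in the left panel (-1.25, grey) and qua-1 in the right panel (-1.25). The wrt genes lie between -0.98 and 1.08.

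For grl-25, which has the longest coding region of the grl genes in this group, input levels were 478, 15.6 and 14.5 CPM in LIN41 replicates 1, 2 and 3 and 487, 33.3 and 11.8 CPM in SART-3 replicates 1, 2 and 3. The corresponding IP levels were 992, 0 and 25.0 CPM for LIN41 and 507, 23.6 and 4.85 CPM for SART-3. Replicate 1 was the highest in all 4 groups, without overlap, and exceeded the mean of replicates 2 and 3 by 31.8-fold in the LIN41 input and by 21.6-fold in the SART-3 input. The log2 difference was -4.27 (SE 0.29, adjusted p = 0.000916) for replicate 2 against 1 and -5.28 (SE 0.32, adjusted p = 0.000271) for replicate 3 against 1.

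Other genes of the family behaved alike. Input levels of grl-9 were 192, 15.6 and 5.79 CPM in LIN41 worms and 190, 15.02 and 8.10 CPM in SART-3 worms, and its IP levels were 430, 13.7 and 0 CPM and 214, 20.2 and 2.43 CPM. The strains therefore gave nearly the same level at each replicate number, and the log2 difference was -3.66 (SE 0.21, adjusted p = 0.000390) in replicate 2 and -4.77 (SE 0.23, adjusted p = 0.000128) in replicate 3. For grl-17, input levels were 202, 17.8 and 10.6 CPM (LIN41) and 215, 17.6 and 11.8 CPM (SART-3), and IP levels were 434, 5.49 and 8.34 CPM and 240, 21.9 and 4.85 CPM. The log2 difference of this gene was -3.57 (SE 0.19, adjusted p = 0.000379) in replicate 2 and -4.25 (SE 0.20, adjusted p = 0.000128) in replicate 3.

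Levels of grl-23 were 230, 26.8 and 30.9 CPM in the LIN41 input and 256, 32.0 and 18.1 CPM in the SART-3 input, with 594, 8.23 and 25.0 CPM and 245, 20.2 and 7.28 CPM in the IPs. Its log2 difference was -3.03 (SE 0.24) in replicate 2 and -3.41 (SE 0.24) in replicate 3. Replicate 1 again stood alone in each of the 4 groups. For grl-20 the inputs held 137, 6.69 and 14.5 CPM (LIN41) and 156, 16.3 and 9.35 CPM (SART-3), and the IPs held 773, 10.97 and 25.0 CPM and 347, 28.6 and 16.98 CPM. Its log2 differences were -3.58 (SE 0.32) and -3.72 (SE 0.32), and this is the gene whose counts came closest to the ceiling of collapsed reads, which lowers the highest values most.

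Input levels of grl-19 were 91.5, 6.69 and 6.76 CPM in LIN41 worms and 109, 17.6 and 9.35 CPM in SART-3 worms, and its IP levels were 247, 8.23 and 2.78 CPM and 220, 11.8 and 12.1 CPM. For grl-3, the inputs held 81.6, 6.69 and 3.86 CPM (LIN41) and 103, 19.6 and 13.7 CPM (SART-3), and the IPs held 86.9, 0 and 5.56 CPM and 93.0, 15.1 and 12.1 CPM. Both genes were highest in replicate 1 in every group. The log2 differences were -3.01 (SE 0.30) and -3.70 (SE 0.32) for grl-19 and -2.84 (SE 0.36) and -3.44 (SE 0.38) for grl-3. The smallest difference of the 8 was that of grl-22, at -1.23 (SE 0.29, adjusted p = 0.0445) in replicate 2 and -1.09 (SE 0.28, adjusted p = 0.0285) in replicate 3, with 34.7 to 45.3 CPM in the inputs of replicate 1 and 15.6 to 24.1 CPM in the others.

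These calls were stable for 7 of the 8 genes, which passed in both contrasts under each alternative in which they were tested. For grl-22, 4 of 15 alternatives ended the call in replicate 2 and 3 of 15 in replicate 3. LIN41 input replicate 1 was the deepest library of its group with 2024430 counts, and SART-3 input replicate 1 was the shallowest of its group with 1274703 counts. The counting was not stated to use strand, and an overlapping gene could add reads. In WBcel235, grl-3 shares exon sequence with deg-3, grl-17 with C56A3.8, grl-19 with aass-1 and grl-20 with glb-7, each on the opposite strand, and none of these partners passed in either contrast. The partner of grl-9, ZC487.1, was also lower in both, by log2 differences of -1.30 (adjusted p = 0.0382) and -1.54 (adjusted p = 0.0110), and its reads and those of grl-9 cannot be told apart where the exons overlap. W03A5.1, which overlaps grl-22, was higher in replicate 3 by a log2 difference of 0.97 (adjusted p = 0.0303), in the direction opposite to grl-22.

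**Figure D3:**
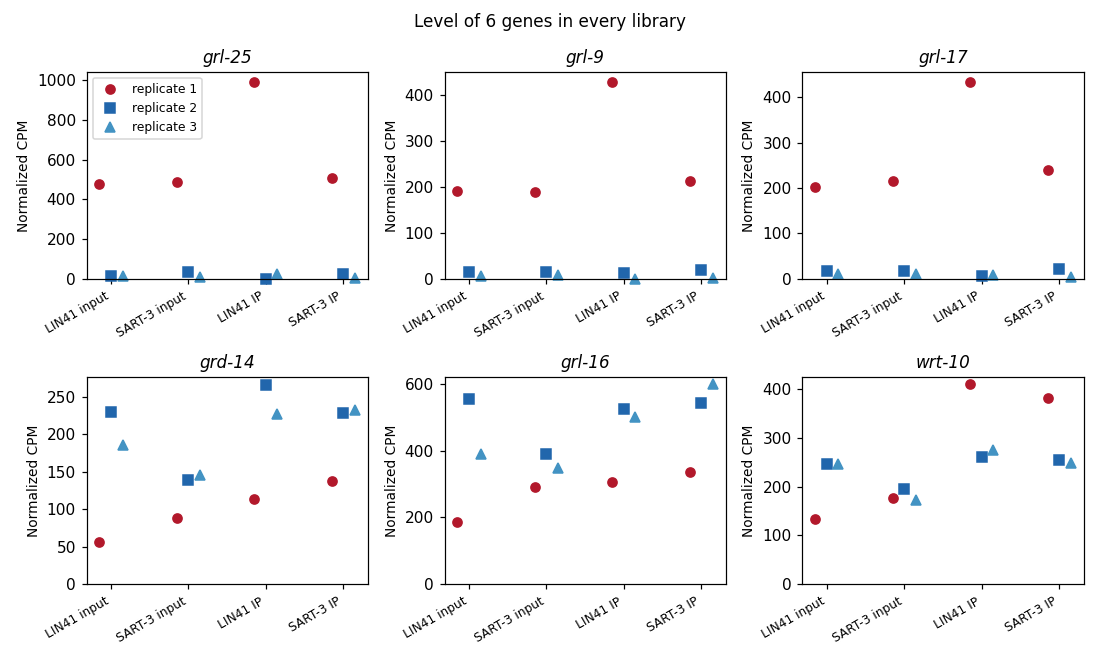
Normalized CPM (linear axis from 0) of 6 genes in the 4 groups, with 1 point for each library and colour and shape by replicate number. For grl-25, grl-9 and grl-17 the replicate 1 points lie far above the others in each group, for grd-14 they lie below the others, and for wrt-10 they are lowest in the LIN41 input and highest in both IPs.

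Members of the grd family went both ways. Counts of grd-7 were not tested in the main fit of the inputs because only 2 of the 6 libraries held more than 5. They were 276, 3 and 4 in LIN41 input replicates 1, 2 and 3 and 95, 5 and 1 in the SART-3 input. Counts of grd-9 were 158, 2 and 1 and 54, 2 and 2, and those of grd-4 were 35, 2 and 2 and 19, 4 and 1. Replicate 1 was thus far above the rest in both strains for these 3 genes as well. For grd-7, the reporting minimum of 10 counts was met only by the 4 libraries of replicate 1 (31 and 21 counts in the LIN41 and SART-3 IPs). Its difference is therefore given as a description only. The alternative with no filter on low counts did test it, and that outcome enters only the counts given below for that alternative. The other two, grd-9 and grd-4, lie outside the reported set, since only 2 libraries held 10 counts, and they were chosen for description after their values were seen.

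In the opposite direction, grd-2, grd-6, grd-14 and grl-15 were higher in replicates 2 and 3 than in replicate 1. Input levels of grd-6 were 64.3, 185 and 123 CPM in LIN41 replicates 1, 2 and 3 and 78.3, 147 and 124 CPM in SART-3 replicates 1, 2 and 3, while the IPs held 86.9, 241 and 131 CPM and 141, 180 and 143 CPM. Replicate 1 was the lowest in all 4 groups, and the log2 differences were 1.197 (SE 0.18, adjusted p = 0.0206) and 0.75 (SE 0.19, adjusted p = 0.0255). For grd-2, at a low level, the inputs held 9.499, 30.1 and 22.2 CPM (LIN41) and 6.65, 31.3 and 24.3 CPM (SART-3), and the IPs held 0, 41.1 and 27.8 CPM and 16.9, 35.3 and 26.7 CPM. It rose by 1.86 (SE 0.34, adjusted p = 0.0304) and 1.43 (SE 0.35, adjusted p = 0.0238) on the log2 scale. The differences were 1.32 (SE 0.29) and 1.16 (SE 0.29) for grd-14 and 1.09 (SE 0.27) and 0.93 (SE 0.27) for grl-15, whose adjusted p in replicate 2 was 0.04998. In replicates 2 and 3, the calls were lost in 5 of 15 and 4 of 15 alternatives for grd-2, in 2 of 16 and 4 of 16 for grd-6, in 2 of 16 and 1 of 16 for grd-14, and in 7 of 16 and 3 of 16 for grl-15.

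The genes grd-4 and grd-14 are neighbours on chromosome X, 184 bp apart on the same strand in WBcel235. Replicate 1 held the highest input counts of grd-4 and the lowest input levels of grd-14. By contrast, grd-13, grd-3 and grd-10 form a cluster on chromosome IV, and none of the 3 passed in either contrast: their log2 differences were 0.87, 0.33 and 0.77 in replicate 2 and 0.85, 0.23 and 0.64 in replicate 3. Input levels of grd-10 were 59.2, 162 and 143 CPM in LIN41 worms and 99.0, 110 and 110 CPM in SART-3 worms. Those of grd-5, which has the same coding length of 309 bp, were 62.2, 156 and 132 CPM and 91.6, 107 and 104.1 CPM, and those of grd-13 were 66.5, 201 and 203 CPM and 118, 140 and 141 CPM. For all 3, LIN41 input replicate 1 was the lowest of the 6 inputs. The same held for abundant genes of the other families, such as wrt-10, grl-4 and grl-16, so it does not mark these 3. The like lengths and levels of grd-5 and grd-10 leave it uncertain how reads were divided between them if the genes share sequence, which was not examined here. The longest grd gene, grd-1, was lower in replicate 3 only (log2 difference -1.06, SE 0.26, adjusted p = 0.0233).

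Of the 10 wrt genes, none passed in replicate 2 with edgeR, where 8.01% of all genes did (2 of the 10 had an unadjusted p under 0.05, and DESeq2 called 0). In replicate 3, where 25.7% of all genes passed, wrt-6 alone did. Whether the families differed from each other was not tested. Input levels of wrt-6 were 37.6, 49.1 and 77.2 CPM in LIN41 worms and 31.8, 42.4 and 54.2 CPM in SART-3 worms, a log2 difference of 0.85 (SE 0.21, adjusted p = 0.0234) between replicates 3 and 1. The IPs, with 27.4, 43.9 and 41.7 CPM and 42.3, 43.8 and 31.5 CPM, did not share this order, and in a fit of the 6 IP libraries the difference was -0.00169 (adjusted p = 0.998). For wrt-4 the difference in replicate 2 was 1.08 (SE 0.31), with an adjusted p of 0.0651. The most abundant wrt gene per kb, wrt-10, held 135, 248 and 247 CPM in the LIN41 input and 177, 195 and 172 CPM in the SART-3 input, with adjusted p of 0.190 and 0.271 in the 2 contrasts. In WBcel235 it lies 15 bp from wrt-1 on chromosome II, on the opposite strand.

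Both genes that stand outside the families encode proteins with a Hog domain. Their log2 differences were negative in replicates 2 and 3, and whether the genes differed from each other was not tested. QUA-1 is required for molting, and its mRNA was lower in replicate 3: the inputs held 268, 151 and 115 CPM in LIN41 worms and 268, 192 and 120 CPM in SART-3 worms. The log2 difference was -1.25 (SE 0.19, adjusted p = 0.00712) in replicate 3 and -0.67 (SE 0.19, adjusted p = 0.0623) in replicate 2. In the 6 IP libraries the difference in replicate 3 was -0.14 (adjusted p = 0.839). Input levels of hog-1 were 44.9, 39.04 and 23.2 CPM and 51.0, 47.7 and 37.4 CPM. Its log2 differences were -0.18 in replicate 2 and -0.72 in replicate 3, and neither contrast passed (adjusted p = 0.610 and 0.0617). Of the other grl genes, 2 passed in 1 contrast only, grl-21 in replicate 2 (log2 difference 0.90, SE 0.20) and grl-26 in replicate 3 (1.11, SE 0.34). GRL-21 is known as a ligand of the epidermis that acts through the Patched-related receptor PTR-24 in lipid metabolism.

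Leaving out a library changed how many of these genes passed. Where no share of all genes is given beside such a count, the change cannot be read as particular to these genes. Without SART-3 input replicate 1, 29 genes passed between replicates 2 and 1 and 31 between replicates 3 and 1, and without LIN41 input replicate 3 or SART-3 input replicate 3 the former count was 20. The lowest counts were 9 and 11, without LIN41 input replicate 2 and without LIN41 input replicate 3. With libraries scaled by their total counts, 1 gene was higher and 7 were lower in replicate 2, in place of 5 and 8. Without LIN41 input replicate 1, 6 genes separated replicates 3 and 2 (8.82% of all genes), and 6 also did so without SART-3 input replicate 1 (9.08%), among them qua-1, grl-25, grd-6, grl-16 and wrt-3 in both cases.

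Genes of related function, from lists of Patched-related, molting and cuticle genes, were compared between replicate numbers in the same way. Over all genes, 25.7% were called in replicate 3 against 1 (13.3% lower and 12.4% higher) and 8.01% in replicate 2 against 1. In the Patched-related list the shares were 74.2% and 16.1%. In replicate 3, 62.5% of neuronal markers were also called, though 0% of intestinal markers, so a raised share was not particular to this list. The part of coding length in these shares was not tested. Of 31 Patched-related and lipid transport genes tested, 22 were lower, 1 was higher and 8 did not pass in replicate 3 against replicate 1, with a median log2 difference of -0.91, and 5 were lower in replicate 2. The list also holds genes that are not receptors of this kind, such as lrp-1 and tra-1. The largest differences were those of ptr-22 (-2.46), ptr-19 (-2.32), ptr-13 (-1.85) and ptr-5 (-1.66). In LIN41 input replicate 3, ptr-19 was at 1.93 CPM, below the floor of 2.90 CPM, and ptr-13 and ptr-5 were at 5.79 and 6.76 CPM, so these sizes are uncertain. The summed level of the list was 3164 and 3256 CPM in the inputs of replicate 1 and 1574 to 2354 CPM in the other inputs.

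Of 27 molting genes, 9 were lower and 1 was higher in replicate 3, with a median of -0.43, and 1 was lower and 1 higher in replicate 2. The nuclear receptor gene nhr-85 (-1.96), peb-1 (-1.71), the zinc-finger gene bed-3 (-1.15) and the fibrillin-like gene fbn-1 (-0.96) had the largest differences in replicate 3. Of 20 cuticle collagens, 2 were higher in replicate 3: bli-1 (2.54) and bli-2 (2.03), collagens of the adult cuticle. The remaining 18 did not pass, and the 10% called were below the 25.7% of all genes. The median of the list was 0.36.

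Markers of cell types were also compared between replicates 3 and 1 in the inputs, where 25.7% of all genes were called (13.3% lower and 12.4% higher). These lists are short, and the epidermal share of 33.3% was near that of all genes. Of 8 neuronal markers, 5 were lower in replicate 3 (summed level 853 and 1020 CPM in replicate 1, 579 to 674 CPM in the others), as were 3 of 6 tested of the 8 glial markers (355 and 416 CPM against 289 to 349 CPM) and 2 of 6 epidermal markers, lin-26 and sma-1 (733 and 746 CPM against 505 to 610 CPM). The epidermal sum rested largely on sma-1, at 370 and 287 CPM in replicate 1 and 110 to 191 CPM in the others. The rest of that list did not follow as a whole. Levels of dpy-7 were 167, 306 and 263 CPM in the LIN41 inputs and 248, 248 and 188 CPM in the SART-3 inputs. Epidermal markers other than lin-26 and sma-1 did not pass. Of 6 body wall muscle and 6 pharyngeal markers, 3 each were lower. The glial list shares ptr-10 and daf-6 with the Patched-related list. The epidermal list shares nhr-25 with the molting list and dpy-7 with the cuticle collagens, so these lists are not separate. Of 10 sperm genes tested, of 14 in the list, 7 were higher in replicate 3 (summed level 123 to 309 CPM in replicate 1, 538 and 841 CPM in replicate 3), while 0 of 7 intestinal and 0 of 8 oocyte markers passed in that contrast with edgeR, at 0 and 2 genes with an unadjusted p under 0.05. No marker gene was at 0 in all libraries. The part of these cell types in the differences of the Hedgehog-related genes was not tested.

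The IP of either protein against its input asked which mRNAs were enriched together with the tagged protein. With 39 genes tested, 5 were higher and 1 was lower in the LIN41 IP than in its input, and 14.2% of all 12036 genes were called (8.87% higher and 5.33% lower). In the SART-3 IP, 7 were higher and 1 was lower, against 18.3% of all genes (10.5% higher and 7.79% lower). The shares called among the 39 genes, 15.4% and 20.5%, were near those of all genes, so the number of calls does not set these genes apart. The genes higher in both IPs were grd-5, grd-10, grl-5, grl-20 and hog-1, grd-3 and grl-10 were also higher in the SART-3 IP, and qua-1 was lower in both. Median log2 differences of the 39 genes were 0.31 and 0.35, against -0.07 and -0.03 over all genes. Scaling by total counts moved the median of all genes to -0.41 and -0.32, and the calls to 2 higher and 2 lower in the LIN41 IP and to 2 higher and 1 lower in the SART-3 IP.

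IP levels of hog-1 were 86.9, 71.3 and 52.8 CPM in LIN41 replicates 1, 2 and 3 and 78.9, 85.8 and 65.5 CPM in SART-3 replicates 1, 2 and 3. Each lay above the input of its own number, by a log2 difference of 0.83 to 1.12 in LIN41 worms and 0.61 to 0.82 in SART-3 worms. The fitted differences were 0.96 (SE 0.23, adjusted p = 0.0109) and 0.77 (SE 0.20, adjusted p = 0.0139). Levels of qua-1 were 36.6, 87.8 and 61.1 CPM in the LIN41 IP and 84.5, 133 and 53.4 CPM in the SART-3 IP, below the input in all 6 pairs. Its fitted differences were -1.39 (SE 0.31, adjusted p = 0.00632) and -1.04 (SE 0.27, adjusted p = 0.0133). The coding regions of these genes are among the shorter and the longest here, 588 bp for hog-1 and 3510 bp for qua-1.

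For grd-10, IP levels were 229, 192 and 220 CPM in LIN41 worms and 214, 199 and 209 CPM in SART-3 worms, a fitted log2 difference of 0.88 (SE 0.26, adjusted p = 0.0300) and 0.96 (SE 0.25, adjusted p = 0.0131). Those of grd-5 were 247, 187 and 228 CPM and 209, 170 and 201 CPM, a difference of 0.96 (SE 0.26, adjusted p = 0.0179) and 0.93 (SE 0.25, adjusted p = 0.0147). In LIN41 replicates 1, 2 and 3, IP and input differed by 1.91, 0.24 and 0.61 for grd-10 and by 1.95, 0.25 and 0.78 for grd-5 on the log2 scale, so the difference was widest in replicate 1, whose input was low. In SART-3 worms the differences were 1.10, 0.83 and 0.91 for grd-10 and 1.17, 0.66 and 0.94 for grd-5. Of 25 alternatives, 9 ended the LIN41 call of grd-10 and 5 that of grd-5, and 7 ended the SART-3 call of each. For grd-13, with IP levels of 192, 211 and 231 CPM and 189, 202 and 228 CPM, neither test passed (log2 difference 0.52 and 0.62, adjusted p = 0.185 and 0.0876). With counts corrected for the ceiling of collapsed reads, the LIN41 difference of grd-10 was 0.69 (adjusted p = 0.0870).

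The largest value in the LIN41 IP was that of grl-20, 2.03 (SE 0.34, adjusted p = 0.00107), and it rested on replicate 1. Log2 differences of IP and input were 2.48, 0.57 and 0.71 in LIN41 replicates 1, 2 and 3, and 1.14, 0.73 and 0.73 in SART-3 replicates 1, 2 and 3. Without LIN41 IP replicate 1 the LIN41 value was 0.73 (adjusted p = 0.407). In the SART-3 IP it was 1.03 (SE 0.34, adjusted p = 0.0394), and 13 of 24 alternatives ended this call. The other grl genes that were high in replicate 1 had more in LIN41 IP replicate 1 than in its input (0.09 for grl-3 to 1.41 for grl-19), and the 8 genes summed to 3649 CPM in that IP against 1457 CPM in its input, and to 1933 CPM against 1552 CPM in SART-3 replicate 1.

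**Figure D4:**
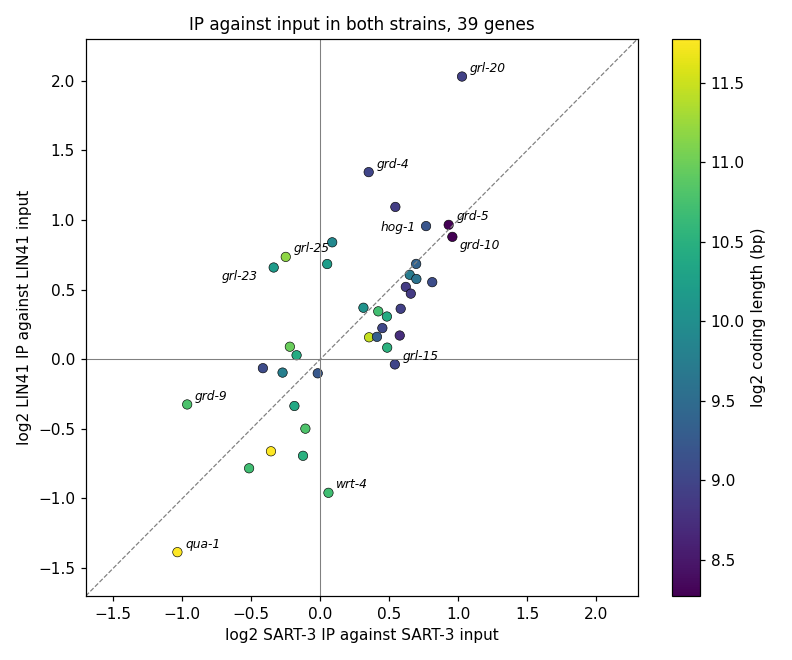
Fitted log2 difference of IP and input in LIN41 worms (vertical) and in SART-3 worms (horizontal) for the 39 genes tested, coloured by the log2 of coding length. The dashed line marks equal values. The longest gene, qua-1 (-1.39 and -1.04), lies at the lower left, and grl-20 (2.03 and 1.03), grl-23 and grl-25 lie above the line.

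Values in both IPs went with coding length. Over the 39 genes, Pearson's r between the log2 difference and log2 length was -0.61 in LIN41 worms and -0.70 in SART-3 worms (Spearman's rho -0.57 and -0.70), and over all genes it was -0.42 and -0.47. These are descriptions across genes, which share the same 12 libraries and are not independent replicates. The 21 genes shorter than 1000 bp had a median of 0.55 and 0.58, and the 18 longer ones of 0.06 and -0.15. With offsets for gene length, an alternative chosen after the data were seen, 8 genes were higher and 1 was lower in the LIN41 IP, and 4 were higher in the SART-3 IP. The difference of grd-10 was then 0.44 (adjusted p = 0.121) in the LIN41 IP and 0.43 (adjusted p = 0.101) in the SART-3 IP, and that of qua-1 was -0.88 (adjusted p = 0.0141) and -0.52 (adjusted p = 0.0783).

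Several counts in the IPs depended on a library. They are given without the share of all genes under the same setting, so they cannot be read as particular to these genes. Without LIN41 IP replicate 1 no gene passed in the LIN41 IP, against 6 with it, and without replicate number 3 in all groups 1 passed in the LIN41 IP and 0 in the SART-3 IP. In the SART-3 IP, 0 passed without SART-3 IP replicate 3, 1 without SART-3 IP replicate 1, 1 without SART-3 input replicate 3, 2 without SART-3 input replicate 2 and 4 without SART-3 input replicate 1. Conversely, 16 passed there without LIN41 input replicate 1 and 13 without replicate number 1 in all groups. As well as grl-20, 2 genes higher in an IP share exon sequence with another gene on the opposite strand, grl-10 with the ribosomal protein gene rpl-39 and hog-1 with atat-2.

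Whether any of these mRNAs was enriched by LIN41 beyond the control IP was addressed by the interaction of library type and protein. None of the 39 genes passed, where 0.0415% of all genes did (5 of 12036). With edgeR, 1 of the 39 had an unadjusted p under 0.05, and DESeq2 called 0. Log2 values ranged from -1.02 (SE 0.54, adjusted p = 1.00) for wrt-4 to 1.00 (SE 0.47, adjusted p = 1.00) for grl-20, with a median of -0.08. For grl-23 the value was 1.00 (SE 0.50) and for grl-25 0.98 (SE 0.59). The log2 difference of IP and input of grl-23 was 1.36, -1.48 and -0.28 in LIN41 worms and -0.06, -0.61 and -1.10 in SART-3 worms, and that of grl-25 was 1.05, -3.03 and 0.71 and 0.06, -0.46 and -0.996. For both genes LIN41 worms had the higher value in replicates 1 and 3 and the lower one in replicate 2. The values of replicates 2 and 3 rest on few IP counts, some at or below the floor of 3. For grl-23 these counts were 3 and 9 in LIN41 worms and 12 and 3 in SART-3 worms. For grl-25 they were 0 and 9 and 14 and 2, so the sizes and their order are uncertain. The count stayed at 0 under each of the alternatives run.

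The LIN41 input was also compared with the SART-3 input, as the strains differ in lin-41 and in the transgene. None of the 39 genes passed, against 1.41% of all genes, 1.32% higher and 0.0914% lower in the LIN41 input (2 of the 39 had an unadjusted p under 0.05, and DESeq2 called 0), and log2 values ran from -0.79 to 0.78. This depended on replicate 1. Without LIN41 input replicate 1, 7 of 37 genes passed, 6 higher and 1 lower in LIN41 worms, against 13% of all genes. Without replicate number 1 in all groups 10 of 36 passed, 9 higher and 1 lower, against 24% of all genes. The share of all genes rose from 1.41% in the same way, so these gains cannot be read as particular to the Hedgehog-related genes. In the latter the values were 0.53 for grd-14, 0.51 for grd-13, 0.46 for grd-10, 0.43 for grd-5, 0.43 for wrt-10, 0.41 for grd-3, 0.32 for grl-7, wrt-1 and grl-15, and -1.65 for grl-3. Of 10 sperm genes tested, 4 were higher in the LIN41 input, and the part of this difference in the others was not tested.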

How the data were processed

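RNA was measured by RIP-seq in 12 libraries, 3 replicates of each of 4 groups, which were assigned from the sample labels. The deposited values are raw read counts per gene. To make them, the authors collapsed reads with an identical 5′ end to 1 read, aligned them with QuasR and the SpliceMap aligner, handled alignments with SAMtools, and counted reads over the exons annotated in WormBase WS190. The assembly is ce6 in the paper's methods and ce10 in the labels. Libraries were made with a stranded kit, and whether counting used strand is not stated. Of the gene lengths in the table, 96.6% are multiples of 3, so they are called coding lengths.

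The main tests used edgeR 4.0.16 under R 4.3.3 (TMM factors, filterByExpr, quasi-likelihood F test, 2-sided, Benjamini-Hochberg adjustment over all genes tested, threshold 0.05). A fit of the 12 libraries (12036 genes) modelled replicate number, protein, library type and the interaction of the last 2, and gave 4 tests. A fit of the 6 inputs (12802 genes), with terms for protein and replicate number, gave the other 4. The replicate number stands in for the sequencing batch of the study's model, and the likelihood ratio test of the study was run as an alternative. Standard errors were derived from F, as the size of the log2 value over the root of F. Differences within a replicate were taken on log2 CPM, with 2 as the prior count. The script was tested on simulated data.

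Replicate numbers were kept as a term because libraries of the same number deviated together: deviations from the group means of directly compared groups correlated for 12 of 12 pairs (Pearson's r across 9577 genes from 0.289 to 0.724), and in 17 of 18 pairs overall r was over 0.1 (lowest 0.00966). The study calls the replicates independent experiments.

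Every gene of the families may be named. Values per library are given for the 12 genes of lowest p among those past the threshold, with at least 1 gene of each family, for hog-1 and qua-1 and for the 3 highest per kb in the inputs, and up to 4 genes are named from each comparison list. Genes outside this rule are named with fewer values or are said to have been chosen after their values were seen. The genes and lists were chosen with earlier results of these data known. Symbols (18778 of 20182 identifiers), overlaps and neighbours come from the WBcel235 annotation, and grl-30 was not analysed here. Alternatives were other tests (likelihood ratio, DESeq2 1.42.0), scaling (RLE, total counts), filters, a correction for collapsed reads, other replicate terms, other libraries, leaving out each library or replicate number, and offsets for gene length (loess, span 0.3), added after the data were seen.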

Additional observations from a re-analysis of the deposited data

How the results depend on the processing

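The number of Hedgehog-related genes called moved by more than 1.5 times under these alternatives. The counts in this section stand without the share of all genes under the same setting, so they cannot be read as particular to these genes. Without the replicate block, 0 genes were called in the LIN41 IP (6 with it) and 0 in the SART-3 IP (8 with it), although the numbers pair the libraries. A block for each lysate moved no count of calls by over 1.5 times. In the SART-3 IP, 3 genes were called with total counts only, 5 with at least 10 counts in every library and 4 with offsets for gene length. Among replicate numbers in the inputs, 20 genes differed by the likelihood ratio test, 22 with no filter on low counts, 22 with all 12 libraries, 8 with at least 10 counts in every library and 3 in the 6 IP libraries, against 13. For replicates 2 and 1 the counts were 8 with total counts only, 21 with no filter, 7 with at least 10 counts in every library and 2 in the 6 IP libraries, against 13. For replicates 3 and 1 they were 9 with DESeq2 and 3 in the 6 IP libraries, against 16, and for replicates 3 and 2 the count was 1 (wrt-3) with all 12 libraries, against 0. The alternative with all 12 libraries takes an IP and its input as separate, though they come from the same lysate, so its counts rest on no more cultures. The cause of these changes was not tested, except that the IP libraries let only 23 of the genes pass the filter, against 41 in the inputs, and that a minimum of 10 counts in every library left 18 genes in the fit of 12 libraries and 29 in the inputs.

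Leaving out a library or a replicate number gave 0 to 8 genes in the LIN41 IP, 0 to 16 in the SART-3 IP, 0 to 10 between the inputs of the strains, 13 to 33 for any difference among replicate numbers, 9 to 29 for replicates 2 and 1, 11 to 31 for replicates 3 and 1, and 0 to 6 for replicates 3 and 2. LIN41-specific enrichment gave 0 throughout. Where a group was left with 1 library, that library was assumed to vary like the others. Of 785 values of single genes under an alternative (43 called results), 621 kept their direction and call, 163 kept the direction only, and 1 reversed: wrt-6 in replicate 3 against 1, at -0.00169 in the 6 IP libraries. Depth limits the IPs most, where 3 counts correspond to up to 13.7 CPM.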

Other observations

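Of the 17 genes with too few counts to be reported, grd-8 held 11 counts in LIN41 input replicate 1, 1 in SART-3 input replicate 1 and 3 in SART-3 IP replicate 1, and 0 in the remaining 9 libraries. The 3 genes grl-28, grl-29 and grl-31, neighbours on chromosome V in WBcel235, held at most 5 counts in any library, at which depth differences between groups were not detectable.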
